A study of Mus musculus with 8 samples.

Results

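In wild-type mouse MSPCs, mesenchymal stem/progenitor cells of the marrow stroma, 2565 of 20661 autosomal protein-coding genes (12.4%) carried H3K4me3 and H3K27me3 at the same gene end. A gene end counted as marked when a peak came within 1000 bp of it. The other genes carried H3K4me3 alone (9428 genes, 45.6%), H3K27me3 alone (2735 genes, 13.2%), both marks but never at the same end (371 genes, 1.8%) or neither (5562 genes, 26.9%). The cells were wild type on the C57BL/6 background, bone-marrow-derived stroma grown in culture and taken at passages 5 to 10. There was 1 library of each mark, and the ASXL1 and H3K4me2 libraries of the same genotype served as further readouts. The labels do not say whether the libraries came from the same culture. The Asxl1-/- libraries of the study were not used here.

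H3K4me3 is placed by the COMPASS family of methyltransferases and lies at the starts of active genes, most of them rich in CpG dinucleotides. H3K27me3 is placed by Polycomb repressive complex 2 and lies over silent genes, often in long domains. Promoters that hold both are called bivalent, a state first described at genes of development in embryonic stem cells, where the genes are silent or weakly expressed. In a bulk culture, both marks on the same nucleosome and a mixture of cells that carry 1 mark each cannot be told apart. H3K4me2 accompanies H3K4me3 at promoters and also lies at enhancers, and ASXL1 is a chromatin regulator that works with the deubiquitinase BAP1.

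Promoter sequences are printed for genes that follow the rule for named genes: 3 with both marks and 1 with each mark alone. Each is the RefSeq window of GRCm38.p6, from 250 bases before to 50 after the gene's start, written 5' to 3' on the gene's strand, with CpG dinucleotides in capitals. The Hoxa7 window lay at chr6:52218524-52218823 on the minus strand, with 277 of its bases under H3K4me3 and 300 under H3K27me3. The Gsc window lay at chr12:104473187-104473486 on the minus strand and the Foxo1 window at chr3:52268087-52268386 on the plus strand, each with all 300 bases under both marks. Hoxa2, with H3K4me3 alone, lay at chr6:52164782-52165081 on the minus strand. Hoxb1, with H3K27me3 alone, lay at chr11:96365508-96365807 on the plus strand.
Hoxa7: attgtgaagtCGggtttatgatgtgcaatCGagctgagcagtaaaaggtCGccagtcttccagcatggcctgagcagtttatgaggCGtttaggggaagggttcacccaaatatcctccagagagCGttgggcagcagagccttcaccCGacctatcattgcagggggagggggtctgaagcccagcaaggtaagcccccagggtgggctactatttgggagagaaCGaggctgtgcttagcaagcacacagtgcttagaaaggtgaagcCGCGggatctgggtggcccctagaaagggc
Gsc: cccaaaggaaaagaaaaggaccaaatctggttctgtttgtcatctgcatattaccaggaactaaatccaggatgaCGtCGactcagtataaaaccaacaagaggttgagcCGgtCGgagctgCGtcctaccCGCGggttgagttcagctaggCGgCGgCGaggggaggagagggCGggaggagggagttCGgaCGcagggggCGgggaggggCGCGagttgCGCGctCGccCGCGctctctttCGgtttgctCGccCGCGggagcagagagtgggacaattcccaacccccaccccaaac
Foxo1: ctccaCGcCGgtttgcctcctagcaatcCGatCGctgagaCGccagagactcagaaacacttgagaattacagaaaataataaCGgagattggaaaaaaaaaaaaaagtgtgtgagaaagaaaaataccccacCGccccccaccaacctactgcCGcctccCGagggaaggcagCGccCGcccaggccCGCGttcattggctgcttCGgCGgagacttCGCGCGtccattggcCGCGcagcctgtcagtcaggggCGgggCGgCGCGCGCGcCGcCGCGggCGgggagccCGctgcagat
Hoxa2: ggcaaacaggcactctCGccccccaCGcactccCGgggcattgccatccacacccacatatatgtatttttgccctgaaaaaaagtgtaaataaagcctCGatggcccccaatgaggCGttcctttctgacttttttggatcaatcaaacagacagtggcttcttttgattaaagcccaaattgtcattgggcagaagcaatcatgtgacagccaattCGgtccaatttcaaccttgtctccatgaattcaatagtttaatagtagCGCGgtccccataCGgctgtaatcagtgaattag
Hoxb1: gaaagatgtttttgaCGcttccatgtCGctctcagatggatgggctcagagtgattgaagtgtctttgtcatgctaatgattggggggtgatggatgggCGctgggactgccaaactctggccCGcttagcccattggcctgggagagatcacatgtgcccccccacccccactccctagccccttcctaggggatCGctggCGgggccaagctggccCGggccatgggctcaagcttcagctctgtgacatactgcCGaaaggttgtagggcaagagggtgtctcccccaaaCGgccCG
The windows held 9 CpG in Hoxa7, 25 in Gsc, 31 in Foxo1, 9 in Hoxa2 and 10 in Hoxb1. Over the 16456 autosomal windows in the RefSeq table the median was 14 CpG, with quartiles of 4 and 25. The marked windows printed here therefore ran from below that median to above its upper quartile. A comparison of CpG content between the classes was void, because RefSeq windows were at hand for only 75.3% of the genes with both marks, 78.5% of those with H3K27me3 alone and 79.7% of those with neither, under the 80% required.

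The marks differed in extent. The autosomal H3K4me3 list held 17395 peaks that covered 66.9 Mb, and its median peak was 3400 bp wide. The H3K27me3 list held 17507 peaks that covered 213.2 Mb, and its median peak was 8400 bp wide. They shared 7.59 Mb, which was 11.3% of the H3K4me3 length and 3.56% of the H3K27me3 length. Of the H3K4me3 peaks, 3412 overlapped an H3K27me3 peak by at least 1 bp (19.6%, 95% exact interval 19.0 to 20.2). Of the H3K27me3 peaks, 3038 overlapped an H3K4me3 peak (17.4%, 16.8 to 17.9). Intervals of this kind cover counting error only.

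H3K4me3 peaks that met H3K27me3 mostly sat inside it. Of the 3412, 2468 (72.3%) lay wholly within H3K27me3, 72 (2.11%) held a whole H3K27me3 peak, and 872 (25.6%) overlapped in part. The median H3K4me3 peak of this kind therefore shared 100% of its length, whereas the median overlapping H3K27me3 peak shared 18.3%. Most overlapping H3K27me3 peaks met 1 H3K4me3 peak (2717), while 263 met 2, 48 met 3 and 10 met 4 or more. The H3K4me3 peaks without overlap lay a median of 55400 bp from the nearest H3K27me3 peak, and 365 of them (2.61%) lay within 1000 bp of one. The shared sequence fell into 3435 stretches with a median of 2000 bp.

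The overlap ran in opposite directions with the widths of the marks. H3K4me3 peaks of up to 1 kb overlapped H3K27me3 in 30.3% of cases and those of 1 to 2 kb in 31.9%, against 11.0% at 4 to 6 kb and 7.45% above 8 kb. H3K27me3 peaks of up to 2 kb overlapped H3K4me3 in 9.55% of cases, against 25.3% at 16 to 32 kb and 54.3% (47.3 to 61.2) above 64 kb. A longer H3K27me3 peak covers more sequence, and the part of length alone in that rise was not tested. The H3K4me3 peaks that overlapped had a median width of 2400 bp, against 3600 bp for the others. The H3K27me3 peaks that overlapped had a median of 11200 bp, against 8200 bp.

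**Figure D1:**
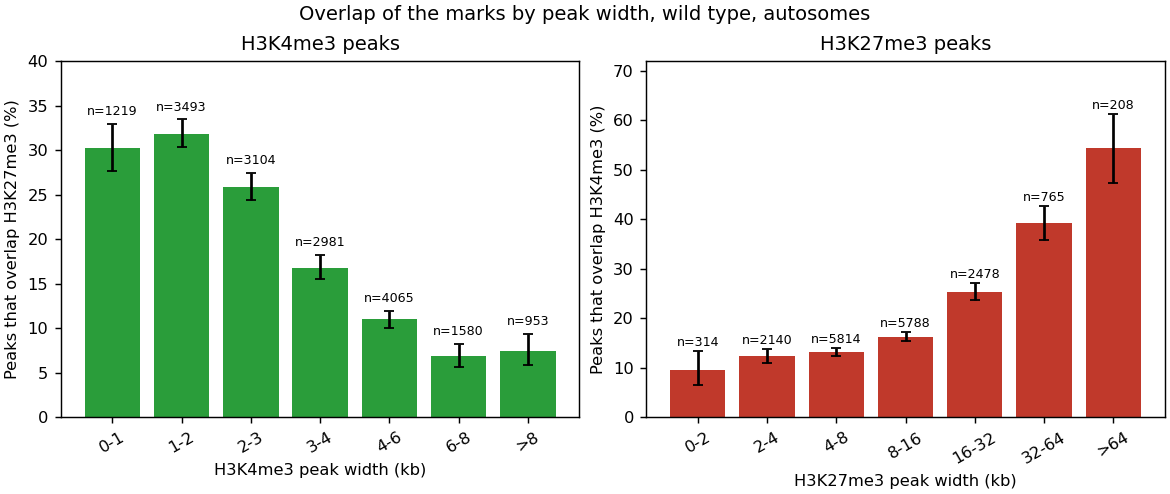
Share of peaks that overlap the other mark (vertical axis, percent) by peak width (horizontal axis, kb), for H3K4me3 peaks on the left and H3K27me3 peaks on the right. Bars are shares in 1 library with 95% exact intervals, and n is the number of peaks; the share falls from 31.9% at 1 to 2 kb to 7.45% above 8 kb for H3K4me3 and rises from 9.55% to 54.3% for H3K27me3.

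At genes, 20.7% (20.0 to 21.5) of the 12364 genes with H3K4me3 also held H3K27me3 at the same end. Counted at either end, H3K27me3 reached 23.7% of the genes with H3K4me3 and 33.0% of the 8297 genes without it. The latter share was 39.4% once chemosensory receptor and defensin genes were set aside. Read from the other mark, 45.2% of the 5671 genes with H3K27me3 held H3K4me3 at the same end. The share of H3K4me3 genes with both marks ran from 17.1% on chromosome 10 to 26.0% on chromosome 15. Strand was known for 1931 of the 2565 genes with both marks: 1603 (83.0%) held them at the start only, 179 at both ends and 149 at the far end only.

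Genes with both marks had narrower peaks of each kind, at the median, than genes with 1 mark, but the widths were not taken alike. At genes with both marks, the width is that of the widest peak at the end with the longest shared length. At genes with 1 mark it is the widest peak at either end, a choice that can only raise it. Their median H3K4me3 peak was 2800 bp wide, against 5000 bp at genes with H3K4me3 alone, and their median H3K27me3 peak was 12000 bp, against 14800 bp at genes with H3K27me3 alone. H3K4me3 peaks of 8 kb or more reached 87 genes with both marks (3.39%) and 1397 with H3K4me3 alone (14.8%). H3K27me3 peaks of 50 kb or more reached 176 (6.86%) and 277 (10.1%). The H3K27me3 peak was the wider of the pair at 2392 genes (93.3%). The part of the choice of end in these differences was not tested. These are single libraries of unknown depth, and the part of depth in the widths was not tested.

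The shared length at a gene, summed over the peaks that reach the same end, had a median of 2200 bp with quartiles of 1600 and 3200 bp. It was 5000 bp or more at 139 genes and reached 13.8 kb at Gsc. The marks shared no base at 43 genes, where separate peaks reached the same window, and shared at least 1000 bp inside the window at 1963 (76.5%). Neighbouring genes can share a peak: the 2565 genes rested on 2336 H3K4me3 and 2227 H3K27me3 peaks, of which 1936 (86.9%) of the H3K27me3 peaks served 1 such gene.

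**Figure D2:**
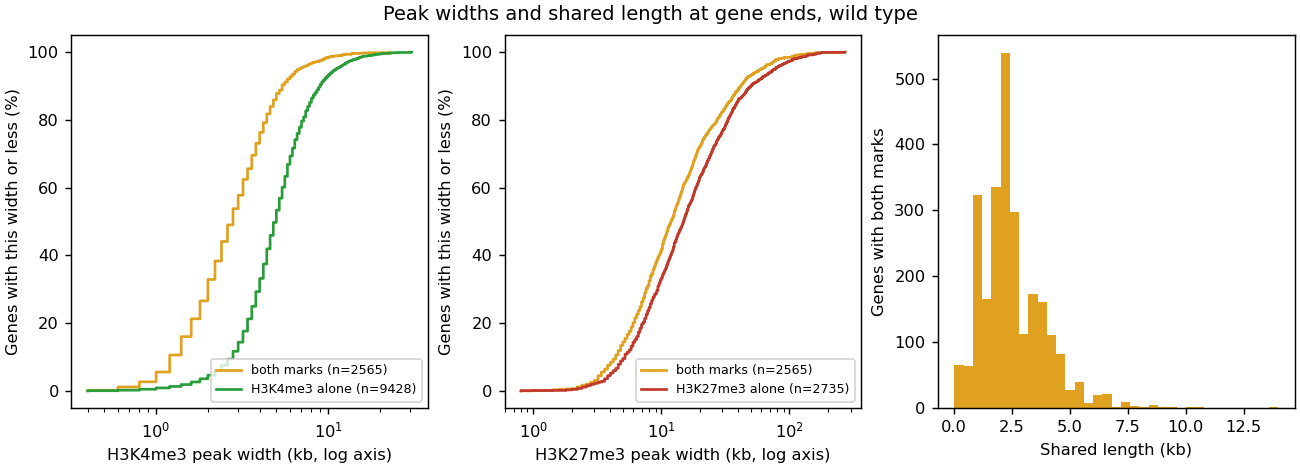
Left and middle: cumulative share of genes (vertical axis, percent) by the width of the H3K4me3 or H3K27me3 peak at the gene (horizontal axis, kb, log scale), for 2565 genes with both marks and for genes with 1 mark. Widths are from the end with the longest shared length for genes with both marks, and the widest at either end for genes with 1 mark. Right: number of genes by shared length in kb; the medians are 2.8 against 5.0 kb for H3K4me3, 12 against 14.8 kb for H3K27me3, and 2.2 kb for the shared length.

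The 12 genes with the longest shared length, taken 1 for each widest H3K4me3 peak, were a mixed set. Gsc, which encodes the homeobox factor goosecoid of the early embryo, had a 13.8 kb H3K4me3 peak wholly inside a 16 kb H3K27me3 peak (gene at chromosome 12, 104471209 to 104473236). Ccnd2, which encodes cyclin D2, shared 10.2 kb between a 10.4 kb H3K4me3 peak and a 59 kb H3K27me3 peak. At Chpf2, an enzyme of chondroitin synthesis, the shared 10.4 kb began beyond the far end of the gene. Hoxa7 shared 9.4 kb over a pair of H3K4me3 peaks: an 8.2 kb peak lay wholly in H3K27me3, and a 22.8 kb peak, which also reached Hoxa9, Hoxa10 and Hoxa11, added 1.2 kb. The protocadherin gene Pcdh7 and Zfpm1, a partner of GATA factors, shared 8.8 kb each. Hoxa3 shared 8.2 kb on the same 8.2 kb peak as Hoxa7, Nfatc1 shared 8.0 kb, and the stress-response factor Atf3 and the RNA-binding protein gene Igf2bp1 7.8 kb each. The homeobox gene Six2 tied with Atf3 and Igf2bp1 at 7.8 kb and is not counted among the 12. Ajm1 shared 8.4 kb on a peak that also reached Phpt1 and Rabl6, and Scrt1 shared 8.4 kb over peaks of 5.0 and 3.4 kb. H3K4me2 and ASXL1 reached all 12 genes, as they did all H3K4me3 peaks above 8 kb.

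The widest peaks of genes with 1 mark had other members. H3K4me3 alone was widest at Cwc22, a splicing factor (30.6 kb), Lmna, which encodes lamin A/C (30 kb), and Nfic (28.2 kb). A single 29.8 kb peak reached the replication-dependent histone genes H2ac10, H2bc9, H3c7, H3c8 and H4c8. H3K27me3 alone was widest at Myl2, a myosin light chain of heart and slow muscle, and Ccdc63, on a shared 271.8 kb peak. A 179.2 kb peak reached Chrna4, which encodes a neuronal acetylcholine receptor subunit, with Col20a1 and Eef1a2, and Fgd5 (174.6 kb) and Slc35f3 (169.8 kb) followed.

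**Figure D3:**
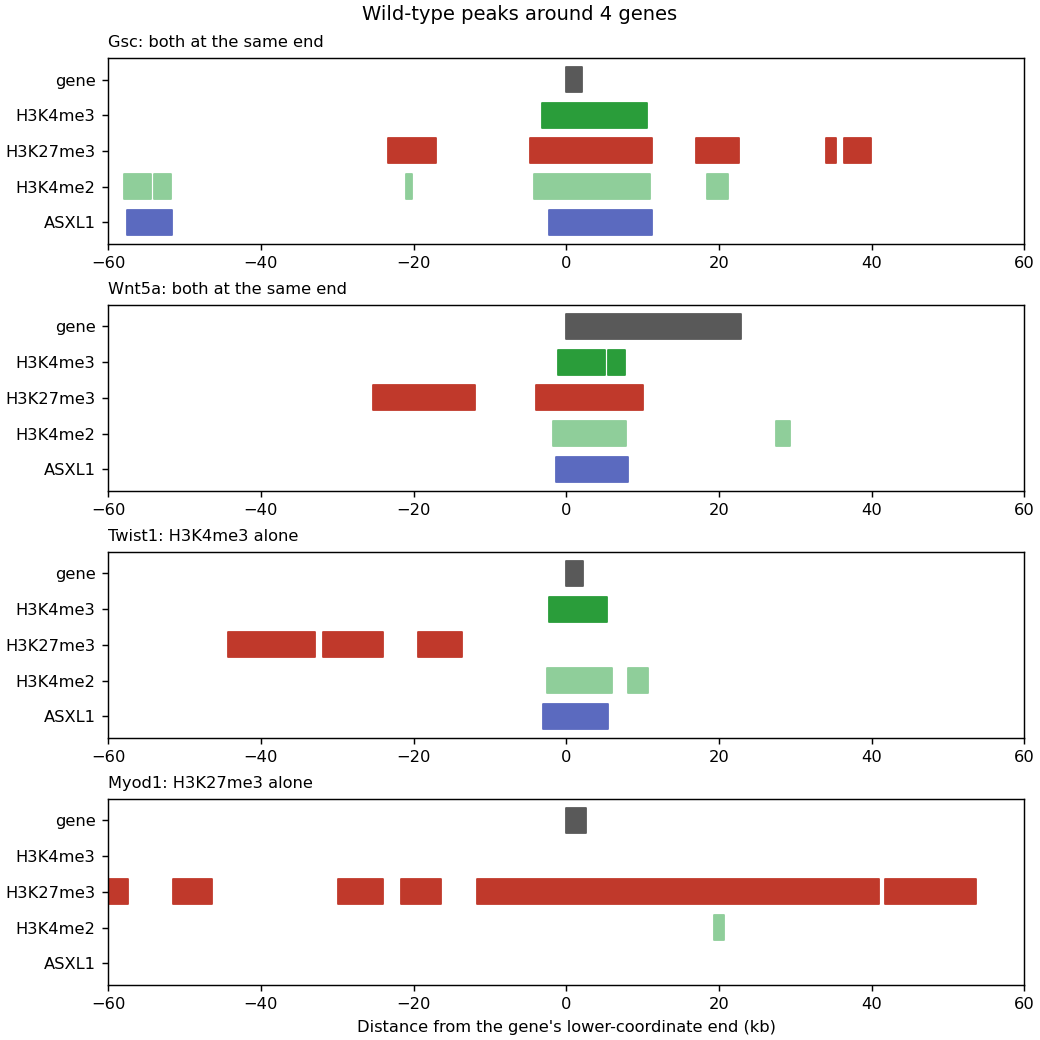
Peaks of 4 wild-type libraries around Gsc, Wnt5a, Twist1 and Myod1, as distance in kb from the gene's lower-coordinate end (horizontal axis); boxes are called peaks and carry no height. At Gsc the H3K4me3 peak fills most of the H3K27me3 peak, at Wnt5a H3K4me3 lies inside a 14 kb H3K27me3 peak, Twist1 has H3K4me3 without H3K27me3 at its ends, and Myod1 lies in a 52.6 kb H3K27me3 peak without H3K4me3.

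Developmental transcription factors held both marks more often than the 12.4% of all genes: 107 of 271 (39.5%), with a further 39.9% under H3K27me3 alone. With the wider 50% of each peak list these fell to 33 (12.2%), against 3.00% of all genes. All 102 listed homeobox genes outside the Hox clusters carried a mark, 50 of them both, 45 H3K27me3 alone and 7 H3K4me3 alone. The list does not hold every such gene: Nanog, in the pluripotency list, had neither mark. Those with both included Six2 (7.8 kb shared), Irx1 (7.6 kb), Dlx1 (5.6 kb) and Dlx6 (5.2 kb). The 7 with H3K4me3 alone included the mesenchymal factors Prrx1 (9.4 kb wide) and Prrx2 (9.6 kb), with Shox2 (12.8 kb). Forkhead genes divided 16 both, 13 H3K4me3 alone, 9 H3K27me3 alone and 3 neither. Foxo1, a transcription factor downstream of insulin signalling, shared 6.4 kb, and Foxf1 kept 5.8 kb within a 91.8 kb H3K27me3 peak, while Foxc1 (13.2 kb) had H3K4me3 alone and the endoderm factors Foxa1 (35 kb) and Foxa2 (95.2 kb) had H3K27me3 alone. Among 38 lineage factors of the bHLH family, 20 had H3K27me3 alone, 9 both and 4 H3K4me3 alone. Those 4 were Twist1, Twist2 and Scx, factors of mesenchyme and tendon, and Atoh8. Sox genes split 7 both, 4 H3K4me3 alone and 5 H3K27me3 alone, T-box genes 5, 4 and 5, and the Pax, Gata and Zic genes 6, 1 and 11, the 1 being Gata6 (10.2 kb).

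The 4 Hox clusters differed from one another. Of 39 Hox genes, 14 held both marks, 9 H3K4me3 alone, 13 H3K27me3 alone, 1 both at different ends and 2 neither. A single 161.4 kb H3K27me3 peak reached Hoxb1 to Hoxb9, and Hoxb7 and Hoxb8 alone of these carried H3K4me3, over 0.6 kb. In the Hoxd cluster H3K27me3 peaks of 61.4 and 46.8 kb reached Hoxd13 to Hoxd3, with H3K4me3 inside them at Hoxd3 (3.6 kb), Hoxd8 (1.4 kb shared) and Hoxd9 (3.2 kb), and with none at Hoxd4, Hoxd10, Hoxd11, Hoxd12 and Hoxd13. In the Hoxa cluster Hoxa2, Hoxa4 and Hoxa5 had H3K4me3 alone, and Hoxa3, Hoxa7, Hoxa9, Hoxa10, Hoxa11 and Hoxa13 held both. In the Hoxc cluster Hoxc12 and Hoxc13 held both on a 75.6 kb H3K27me3 peak, while Hoxc9, Hoxc10 and Hoxc11 had H3K4me3 alone. Clustered genes share peaks, so these members are not separate observations.

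Signalling genes held both marks at 90 of 277 (32.5%), against 12.4% of all genes. With the wider 50% of each peak list 28 did (10.1%), against 3.00% of all genes. Wnt proteins are secreted ligands that act through Frizzled receptors, and 14 of 19 Wnt ligand genes held both marks. Wnt5a shared 6.2 kb with a 14 kb H3K27me3 peak, Wnt1 and Wnt9a 4.4 kb each, and Wnt7b 3.6 kb inside a peak of 84.8 kb. Wnt3a, Wnt7a and Wnt8b had H3K27me3 alone, Wnt5b had H3K4me3 alone and Wnt8a had neither. The neighbours Wnt6 and Wnt10a lay on a single 56.4 kb H3K27me3 peak, and Wnt3 and Wnt9b on one of 17.8 kb. Of 10 Frizzled genes, Fzd1, Fzd3, Fzd4, Fzd6 and Fzd9 held both, Fzd2, Fzd5, Fzd7 and Fzd8 had H3K4me3 alone, and Fzd10 had H3K27me3 alone. Of 17 Wnt antagonists 10 held both, among them the secreted inhibitors Sfrp1 (4.2 kb), Sfrp2 (5.8 kb), Frzb (2.8 kb) and Sost (1.6 kb).

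In the Hedgehog pathway the ligands Shh (31.4 kb) and Ihh (116.6 kb) had H3K27me3 alone, and Dhh held both marks. The receptor Ptch1 (3.2 kb shared), the transducer Smo (1.2 kb), the decoy receptor Hhip (3 kb), the co-receptors Cdon and Boc and the target and effector Gli1 (4.8 kb) held both. Gli2, Gli3, Sufu, Disp1 and Gas1 had H3K4me3 alone. Of 32 BMP and TGF-beta family ligands 11 held both (34.4%, against 12.4% of all genes), led by Bmp4 (7.6 kb shared), with Bmp2 (3.2 kb) and Bmp6 (4.2 kb). Tgfb1 and Tgfb3 had H3K4me3 alone and Nodal had H3K27me3 alone. Notch1 (6.8 kb) and the Notch ligands Dll1 (5.8 kb) and Dll4 (4 kb) held both, and Notch2, Jag1 and the target gene Hes1 had H3K4me3 alone. Of 20 FGF ligands 6 held both and 9 had H3K27me3 alone. Fgf7 (15.6 kb) and Fgf2 (3.6 kb), growth factors made by stroma, had H3K4me3 alone. Among immune ligands, 2 of 39 chemokine genes held both marks, 1 of them Cxcl12 (4.6 kb shared), and 2 of 33 interleukin genes, Il15 and Il17d.

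Genes for membrane and matrix proteins held both at 101 of 396 (25.5%), against 12.4% of all genes. With the wider 50% of each peak list 20 did (5.05%), against 3.00% of all genes. Potassium channels had 32 of 91, led by Kcnk4 (6 kb shared), and neurotransmitter receptors 30 of 94, led by Adra2a (5 kb). In both lists H3K27me3 alone was more frequent, at 36 and 37 genes. Axon guidance genes had 24 of 69 with both, including Efna3 (6.4 kb) and Sema3f (6 kb). Of 42 collagen genes 13 had H3K4me3 alone, 12 H3K27me3 alone, 9 both and 7 neither. The fibrillar collagens of bone and connective tissue, Col1a1 (24.2 kb), Col1a2 (21.6 kb) and Col3a1 (9.6 kb), had H3K4me3 alone. The cartilage collagen Col2a1 held both, with 4.6 kb inside a 40.6 kb H3K27me3 peak.

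Markers of the labelled cell type were largely under H3K4me3, with or without H3K27me3: 23 of 24, against 59.8% of all genes. Of 24 stromal marker genes 14 had H3K4me3 alone (58.3%, against 45.6% of all genes). Among them were Pdgfra (9.6 kb), Pdgfrb (7.6 kb), Cd44 (10.8 kb), Vcam1 (6.4 kb) and Thy1 (4 kb). A further 9 held both marks (37.5%, against 12.4% of all genes), including Grem1 (5.8 kb shared), Cxcl12 (4.6 kb), Mcam (2.6 kb), Nes (2.4 kb) and Ngfr (2.4 kb). With the wider 50% of each peak list none of the 24 did, against 3.00% of all genes. Lepr, the leptin receptor used to mark marrow stroma in vivo, had H3K27me3 alone (5.6 kb). Among 29 blood markers 13 had H3K27me3 alone (44.8%, against 13.2% of all genes), 5 both (17.2%, near the share of all genes), 7 neither and 4 H3K4me3 alone. The last were Cd34, Cd79a, Itga2b and Runx1, and the pan-leukocyte gene Ptprc had H3K27me3 alone (6.8 kb). None of 20 endothelial, 22 epithelial and 24 neuronal markers had H3K4me3 alone, and 7, 8 and 10 of them held both. Each of these shares was above the 12.4% of all genes, so a raised share with both marks was not particular to stromal markers. With the wider 50% of each peak list 1, 2 and 1 of them did, against 3.00% of all genes. Pecam1 and Cdh5 had neither mark.

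The lists also held genes of the lineages that such cells can form. Sox9, the cartilage regulator (7.4 kb), Runx2, the bone regulator (2.4 kb), and Pparg, the fat regulator (4.2 kb), had H3K4me3 alone. Cebpa held both marks over 4.2 kb, Dlx5 over 4 kb and Msx2 over 4.4 kb, and the osteoblast factor Sp7 held them at different ends. Of 18 chondrocyte genes 8 held both (44.4%, against 12.4% of all genes), including Acan (1.2 kb) and Comp (4 kb). With the wider 50% of each peak list 1 of them did (5.56%, against 3.00% of all genes). Of 20 adipocyte genes 7 held both, including Lpl (4.6 kb) and Zfp423 (6.2 kb), and of 18 osteoblast genes 3 did (16.7%), near the share of all genes. Skeletal and cardiac muscle genes had H3K27me3 alone in 12 of 19 (63.2%, against 13.2% of all genes), Myod1 among them (52.6 kb).

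**Figure D4:**
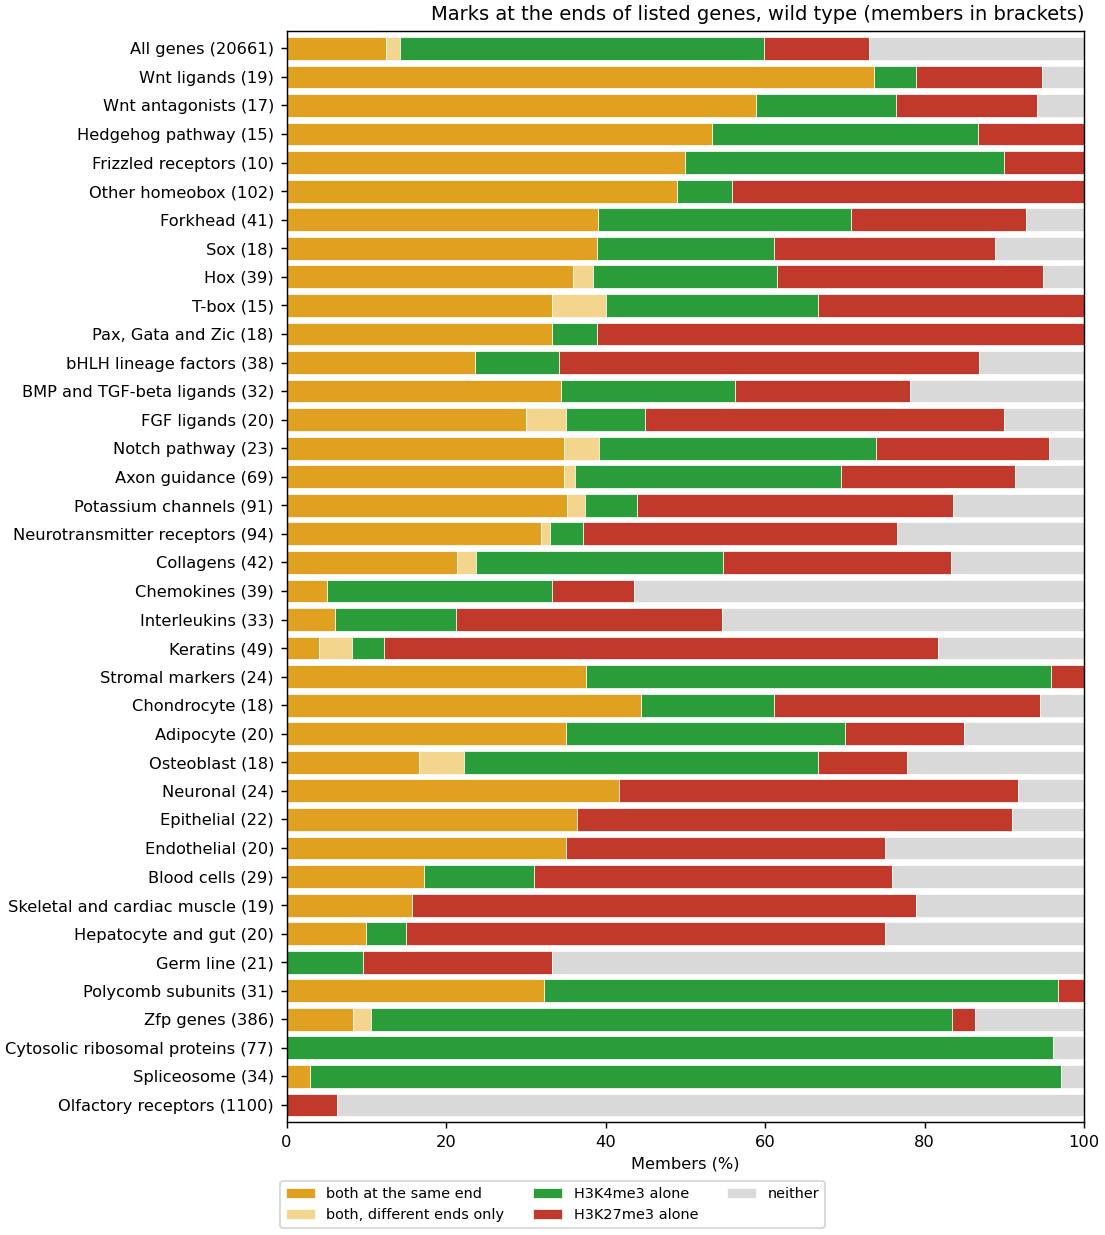
Share of the members of 37 gene lists in each class (horizontal axis, percent), with all 20661 autosomal protein-coding genes in the top row and the number of members in brackets. Wnt ligands, Wnt antagonists and Hedgehog genes have the longest bars for both marks, at 14 of 19, 10 of 17 and 8 of 15, and cytosolic ribosomal genes have none.

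Genes of general cell function and of sensory families rarely held both. None of 77 cytosolic ribosomal protein genes did, 74 having H3K4me3 alone, and 13 of 300 housekeeping genes did in all (4.33%), against 12.4% of all genes. With the 2500 bp window 4 of the 77 and 26 of the 300 (8.67%) held both, against 15.2% of all genes. Of 1100 olfactory receptor genes 1 held both, 68 had H3K27me3 alone and 1031 had neither. Zfp genes, which encode zinc finger proteins, lay nearer the share of all genes. Of 386, 32 held both (8.29%, against 12.4%) and 281 had H3K4me3 alone (72.8%, against 45.6%). With the 2500 bp window 50 of them held both (13.0%, against 15.2% of all genes).

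H3K4me2 and ASXL1 were not used to define the classes. H3K4me2 reached an end of 99.3% of genes with both marks, 99.6% of those with H3K4me3 alone, 23.1% of those with H3K27me3 alone and 7.68% of those with neither. ASXL1 reached 48.5% (46.5 to 50.4) of genes with both marks and 92.5% of those with H3K4me3 alone, against 3.47% under H3K27me3 alone, 4.31% under neither and 51.4% of all genes. At the peaks themselves, ASXL1 overlapped 38.3% of the H3K4me3 peaks with H3K27me3 and 84.3% of those without. Width moved with this readout, so the peaks were set side by side by width. ASXL1 overlapped 13.1% with and 61.4% without H3K27me3 at 1 to 2 kb, 34.0% and 79.7% at 2 to 3 kb, and 84.5% and 97.7% at 4 to 6 kb. Above 8 kb it overlapped 100% of both. ASXL1 overlap was thus lower with H3K27me3 in each width class up to 8 kb, in 1 library per readout and with no replicate check.

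**Figure D5:**
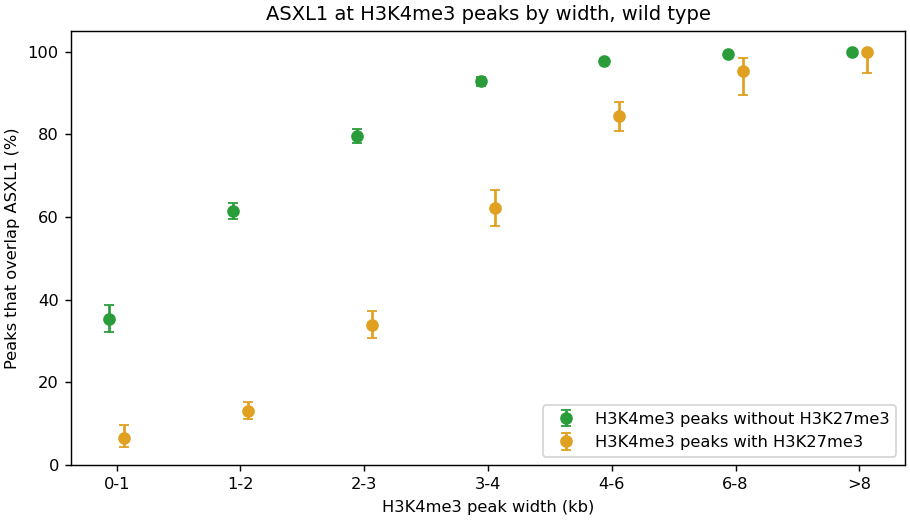
Share of H3K4me3 peaks that overlap an ASXL1 peak (vertical axis, percent) by H3K4me3 peak width (horizontal axis, kb), for peaks with and without H3K27me3. Points are shares in 1 library with 95% exact intervals; peaks with H3K27me3 lie lower at each width up to 8 kb and the shares meet at 100% above it.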

How the data were processed

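Peak lists of 4 wild-type libraries were used (H3K4me3, H3K27me3, H3K4me2 and ASXL1), 1 library each. Per the submitters' processing notes, the tools were BWA and SICER 1.1 and the build was mm10; a peak here is an enriched island of the deposited list. How SICER was run, against which control and at what cutoff, is not given in the sources used here. Values in the deposited lists are peak starts and ends in bp, on a 200 bp grid, without counts or scores, so depth is unknown and no test was made. Adjacent peaks lay at least 400 bp apart for H3K4me3 and H3K4me2 and at least 800 bp apart for H3K27me3 and ASXL1. The Asxl1-/- lists and the input library were not analysed here.

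Peaks were compared as intervals on the 19 autosomes, and overlap counts were equal to those of bedtools 2.31.1. Genes came from the RefSeq table of GRCm38.p6, which has the coordinates of mm10. It gives no strand, so both gene ends were used, and strand came from the RefSeq promoter table for 16456 of the 20661 genes (79.6%). Exons were not used. Intervals are exact Clopper-Pearson 95% intervals. The members and the 50 gene lists were chosen with earlier results of these data known, and 7 listed names were not found among autosomal protein-coding genes. Named genes are the 12 genes with the longest shared length, summed over the H3K4me3 peaks at an end and taken once for each widest peak (the written rule ranked single peaks, and Hoxa7 and Scrt1 rank by a sum), the 8 genes with the widest peak of each mark alone, and list members, up to 6 with both marks by shared length and up to 4 of each other class in alphabetical order, or any member in lists of 40 or fewer. Prrx2, Shox2 and Col3a1 fall outside this rule and were named after their values were seen. Genes known only by a clone or a prediction were passed over. A few members under this rule are not reported here, but all counts include them. On simulated lists with 250 planted genes the script recovered 250. Calculations used Python 3.11.15, numpy 2.4.6, pandas 2.3.3 and scipy 1.17.1.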

Additional observations from a re-analysis of the deposited data

How the results depend on the processing

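The lists give no read depth, so the H3K4me3 peaks narrower than the median and the weak edges of H3K27me3 domains could not be graded by signal; gaps of up to 600 bp in H3K27me3 can be bridged, and 5.03% of the genes with both marks shared 600 bp or less. The share of H3K4me3 genes with both marks was 19.6% with a 500 bp window, 24.5% with 2500 bp, 25.4% at the 13798 genes without a neighbouring gene end, 18.6% counting gene starts of known strand alone and 6.84% with the wider 50% of each list. With the wider 50%, 620 genes held both marks, the median shared length was 3600 bp, and 7.17% of H3K4me3 and 6.73% of H3K27me3 peaks overlapped. With the 2500 bp window the median shared length was 2000 bp. With at least 1000 bp shared, 17.4% of H3K4me3 and 15.6% of H3K27me3 peaks overlapped, and with at least 50% of the peak shared, 17.4% and 2.59%. The other settings kept the count of genes with both marks within 1.5 times. Of the 20661 genes, 2372 held both at 500 bp, 3139 at 2500 bp and 2522 where a base had to be shared. The remaining settings had other totals: 1731 of 13798 isolated genes, 1782 of 16456 starts, 2617 of 21627 genes with the X chromosome and 3349 of 47038 annotated genes. For these a steady count is not a steady share of genes. The count with both marks stayed within 1.5 times in 48 of the 50 lists at 500 bp, in 42 at 2500 bp, in 50 where a base had to be shared and in 7 with the wider 50%, which left out 1945 of the 2565 genes. No paired analysis was possible because each group is 1 library.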

Other observations

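Polycomb genes and genes of a COMPASS and ASXL list were also examined. Of 31 Polycomb genes 20 had H3K4me3 alone, including Ezh1, Ezh2 and Eed of Polycomb repressive complex 2, and 10 held both marks (32.3%), against 45.6% and 12.4% of all genes. Those with both included Cbx8 (4 kb shared), Bmi1 (4 kb), Pcgf5 (3.8 kb), Phf19 (3.8 kb), Epop (3.4 kb), Pcgf1 (2.4 kb), Pcgf3 (2.2 kb), Phc2 (1.6 kb) and Scmh1 (1.6 kb), while Cbx7 had H3K27me3 alone. Of 20 genes in the COMPASS and ASXL list 16 had H3K4me3 alone, Asxl1 (7.2 kb) and Asxl2 (5.6 kb) among them. Asxl3 (1.8 kb) and the H3K27 demethylase gene Kdm6b (1 kb) held both (10.0%), a share near that of all genes. With the wider 50% of each peak list 4 Polycomb genes (12.9%) and none of the COMPASS and ASXL list held both, against 3.00% of all genes.

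Among housekeeping complexes the exceptions were few. In the proteasome list the genes with both marks were Psmb8 and Psmb9, which encode inducible subunits of the immunoproteasome, with 2 and 3 kb shared inside a single 65.6 kb H3K27me3 peak. Of 7 cell cycle inhibitor genes none held both. The exact interval, 0 to 41.0%, holds the 12.4% of all genes, so this list is too short to differ from it. With the 2500 bp window 1 of the 7 held both (14.3%, against 15.2% of all genes). Cdkn2a (13 kb), Cdkn2b, Cdkn1b, Cdkn2c and Cdkn2d had H3K4me3 alone, and Cdkn1a (4.8 kb) and Cdkn1c (21.6 kb) H3K27me3 alone. In the pluripotency list Pou5f1 and Sox2 had H3K27me3 alone, Nanog had neither, Klf4 and Klf5 had H3K4me3 alone, and Klf2, Sall4 and Tfcp2l1 held both. The exact interval for these 3 of 15 genes, 4.33 to 48.1%, also holds the 12.4% of all genes. With the 2500 bp window 5 of the 15 held both (33.3%, against 15.2% of all genes). With the wider 50% of each peak list none did, against 3.00% of all genes.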
